A study of Mus musculus with 4 samples.

Results

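The clustered histone genes are the genes of the Hist1, Hist2, Hist3 and Hist4 clusters, which encode the linker histone H1 and the core histones H2A, H2B, H3 and H4. They were taken as all non-control array probes whose gene name starts with Hist1h, Hist2h, Hist3h or Hist4h. This gave 68 probes for 56 gene names, of 56605 probes in all. There were 8 probes for H1, 21 for H2A, 18 for H2B, 10 for H3 and 11 for H4. By cluster, 48 belonged to Hist1 on chromosome 13, 14 to Hist2 on chromosome 3, 5 to Hist3 on chromosome 11 and 1 to Hist4 on chromosome 6.

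Expression was read in the mouse fibroblast line NIH3T3 on 1-colour Agilent arrays with probes of 60 bases. The labels name this line and also call the cells dermal fibroblasts. In 2 samples the cells had received siTIMP1, an siRNA named for Timp1, the gene of a secreted metalloproteinase inhibitor. In the other 2 they had received siControl. Every sample was transfected with the carrier that the labels call sCA, and all cells were grown with 2% serum. The comparison asks which transcripts differ when Timp1 is targeted. Whether samples of a group were separate cultures is not given in the labels. The p-values therefore rest on the spread between these arrays alone, and that spread may be technical.

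A histone octamer holds pairs of H2A, H2B, H3 and H4, and DNA wraps round it to form the nucleosome. H1 binds the DNA that enters and leaves. Most clustered histone genes lack introns and are transcribed mainly in S phase, when new DNA is packed. Their messages usually end in a conserved stem-loop and not in a poly(A) tail, although several of the genes can also give tailed transcripts. The labelling kit given in the labels primes from poly(A) tails in its standard form, and how far the signals below follow the amount of untailed message was not tested. Array values from mixed RNA also cannot tell fewer expressing cells from less RNA per cell.

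Timp1 was checked first. Its probe, at chrX:20451675-20451733 on the mouse build mm9, had processed signals of 1840 and 1492 in siTIMP1 cells, against 53297 and 67559 in siControl cells. Its log2 fold change was -5.22 (SE 0.158, n = 2 arrays per group, limma adjusted p = 0.0105). All 10 listed fibroblast markers were tested and 0 were called. The lowest p-values were those of Pdgfra, a growth factor receptor, at a log2 fold change of -0.88 (adjusted p = 0.0618) and Lum, a matrix proteoglycan, at -0.37 (adjusted p = 0.103), with siTIMP1 below siControl in both. The log2 fold changes of Col3a1 and Col1a1, which encode fibrillar collagens, were 0.40 and 0.11. Each marker is given by its brightest tested probe. Other tested probes gave -0.40 and -0.20 for Pdgfra, 0.28 and 1.28 for Col3a1, and 0.06 and 0.13 for Col1a1. Of the markers of other cell types, 2 of 6 epithelial, 3 of 6 immune and 0 of 4 endothelial genes were tested. Epcam, Cdh1, Adgre1 and Pecam1 were not among them. Those tested, Krt10, Krt14, Ptprc, Cd68 and Cd3e, were well above background on all 4 arrays by their brightest tested probe. However, only 1 of the 7 probes for Ptprc, 1 of 2 for Cd3e and 2 of 3 for Cd68 were tested. On the log2 scale defined below, Ptprc read 2.06 and 1.63 in siTIMP1 cells, against 1.85 and 1.83 in siControl cells. Krt10 read 1.28 and 1.16 in siTIMP1 cells, against 0.98 and 1.27 in siControl cells. Cd3e ran from -0.35 to 0.55, and Krt14 and Cd68 were below 0 on every array. The 4 arrays lay on 1 slide, siTIMP1 at positions 3 and 4 and siControl at positions 1 and 2, so position and group cannot be told apart. The share of spots well above background ran from 45.9% on siTIMP1 array 2 to 52.1% on a siControl array.

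Levels below are log2 signals relative to the 75th percentile of the same array, so 0 is the level of a probe at that percentile. Testing required a value on each of the 4 arrays and, in siTIMP1 or siControl cells, signal well above background on both arrays. This held for 54 of the 68 histone probes, covering 47 genes: 7 for H1, 15 for H2A, 11 for H2B, 10 for H3 and 11 for H4. Of all 68 probes, 52 were well above background on every array, 12 on none and 4 on some. The 14 untested probes included 6 for H2A, 7 for H2B and 1 for H1, and their values ran from -6.97 to -3.89. Both probes of Hist3h2ba were among them, as was that of the pseudogene Hist3h2bb-ps.

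Because the coding sequences of the genes of a class are nearly alike, several probes differ by only a few bases. At 90% identity or more over at least 40 bases, 17 pairs of probes were found, 14 among 8 H2A probes and 3 among 3 H4 probes. In addition, the array file itself lists 18 of the 68 probes for more than 1 gene and 7 of them for 4 genes. A probe named here for 1 gene may therefore report several, and the values of such probes are not independent of each other. The H2A probes over the end of the coding sequence show how close the targets are. They are given 5′ to 3′ from the array files, and capitals mark bases that differ from the most frequent base at that position among these 5 probes, with the base first in the alphabet kept at a tie.
Hist1h2af: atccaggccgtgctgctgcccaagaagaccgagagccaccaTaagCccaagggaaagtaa
Hist1h2ah: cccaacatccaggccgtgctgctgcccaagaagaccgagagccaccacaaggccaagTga
Hist1h2ak: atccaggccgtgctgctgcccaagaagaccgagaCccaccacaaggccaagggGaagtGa
Hist1h2an: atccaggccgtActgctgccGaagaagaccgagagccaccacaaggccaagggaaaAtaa
Hist2h2aa2: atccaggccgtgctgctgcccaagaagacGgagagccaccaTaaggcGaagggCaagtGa

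These probes lie at chr13:23626113-23626172 on the plus strand (Hist1h2af), chr13:22127035-22127094 on the minus strand (Hist1h2ah), chr13:21845304-21845363 on the minus strand (Hist1h2ak), chr13:21902669-21902728 on the plus strand (Hist1h2an) and chr3:96043781-96043840 on the minus strand (Hist2h2aa2), all on mm9. A second pair of H2A probes shares 54 of the 58 bases over which they overlap, and here capitals mark the bases that differ between them. Hist1h2aa, at chr13:24026659-24026718, is known as a testis form of H2A, and Hist2h2ac, at chr3:96024378-96024437, belongs to the Hist2 cluster.
Hist1h2aa: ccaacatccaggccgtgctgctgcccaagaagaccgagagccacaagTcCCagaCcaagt
Hist2h2ac: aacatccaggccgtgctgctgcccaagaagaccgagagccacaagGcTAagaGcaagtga

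No clustered histone probe passed the test. At a limma adjusted p under 0.05, 0 of the 54 were called higher and 0 lower in siTIMP1 cells, where 0.688% of all 26015 tested probes were called (0.0615% higher and 0.627% lower). The lowest adjusted p among the histones was 0.135. At an unadjusted p under 0.05 there were 4 of 54, all with negative fold changes, against 18.4% of all tested probes (7.7% lower and 10.6% higher). The median log2 fold change of the 54 was -0.02, against 0.02 over all tested probes. The fold change was positive for 25 of them and negative for 29, and ran from -0.92 to 0.59. Over all tested probes it was positive for 13764 and negative for 12251. By class the medians were -0.04 for H1, -0.02 for H2A, -0.09 for H2B, -0.08 for H3 and 0.10 for H4.

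**Figure D1:**
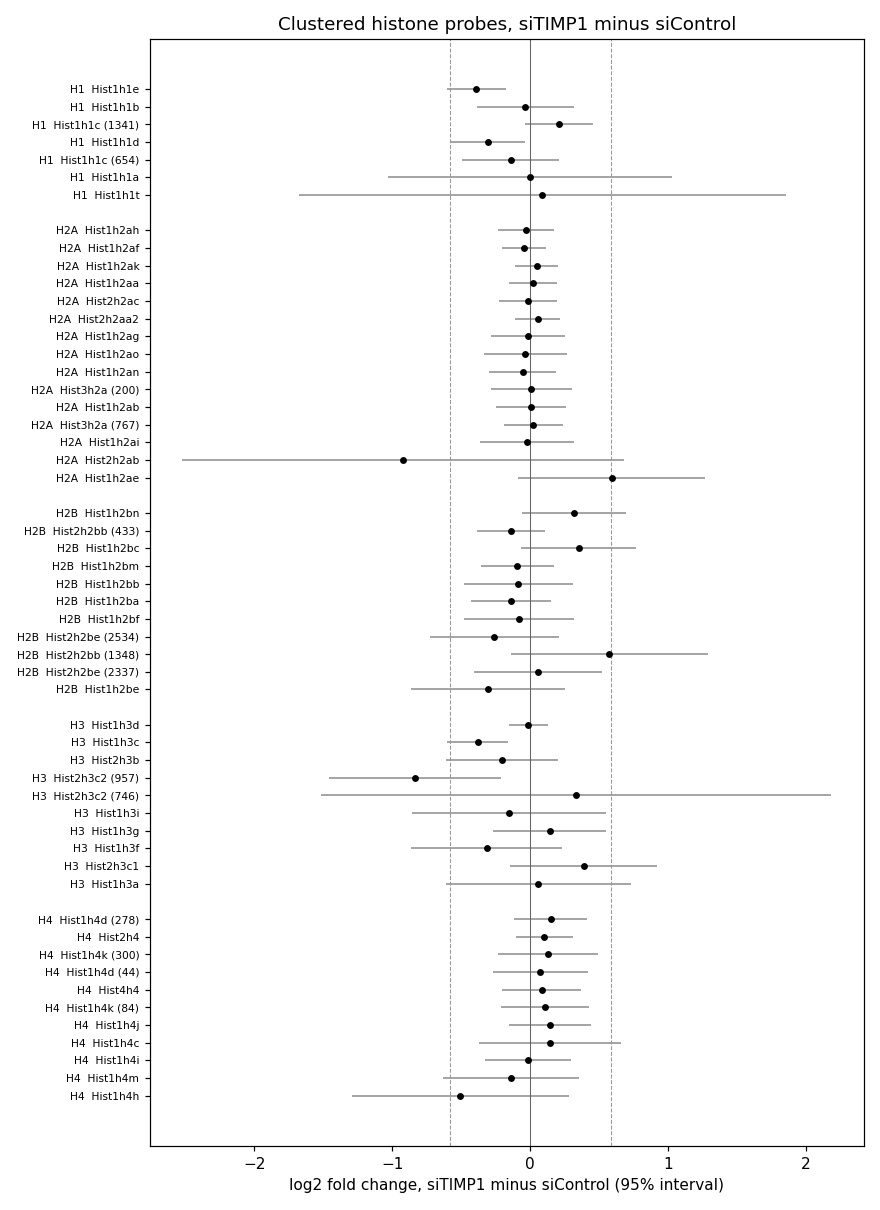
Log2 fold change of each of the 54 tested histone probes, siTIMP1 minus siControl, with the 95% interval of the limma fit; classes run from H1 to H4, numbers in brackets give the base of the array's target at which the probe starts where a gene has more than 1 tested probe, and dashed lines mark 1.5-fold either way. Most points lie near 0, and no probe passed the adjusted threshold.

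How tightly the data bound a difference depended on signal. The 95% interval lay within 1.5-fold either way for 33 of 54 histone probes, against 54.4% of all tested probes. Among the 31 histone probes with a mean level at or above 0 it did so for 26, and among the 23 below 0 for 7. Over all tested probes it did so for 10182 of 12138 at or above 0 and for 3960 of 13877 below 0. On the log2 scale the intervals of the dim histone probes reached from 0.27 to 1.85 to either side, with a median of 0.55, against a median of 0.27 for the bright ones.

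Most H2A members had narrow intervals, which lay within 1.5-fold for 13 of 15. The Hist1h2ah probe read 7.74 and 7.72 on the siTIMP1 arrays, against 7.87 and 7.65 on the siControl arrays. Hist1h2ak read 7.63 and 7.62 in siTIMP1 cells, against 7.66 and 7.50 in siControl cells. In both cases the siTIMP1 values lay between the siControl values. The log2 fold change of Hist1h2ak was 0.05 (95% interval -0.11 to 0.20, adjusted p = 0.705), and over the 5 aligned H2A probes the fold changes ran from -0.05 to 0.05. Hist2h2ac gave -0.02 and Hist1h2aa 0.02. Hist1h2ai and Hist1h2ao, further core H2A genes, gave -0.02 and -0.03, and Hist3h2a gave 0.01 and 0.02 over its probes.

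For 13 of the 15 tested H2A probes both siTIMP1 arrays fell inside the range of the siControl arrays, where this held for 12.2% of all tested probes. As many of these probes may share their targets, the 13 are fewer independent readings than their number. The other 2 H2A members were dim. Hist2h2ab, at chr3:96024171-96024230, read -4.30 and -3.74 in siTIMP1 cells, against -2.22 and -3.98 in siControl cells. Its log2 fold change of -0.92 (SE 0.626, adjusted p = 0.468) rested on siControl array 1, and without that array it was -0.04. Hist1h2ae read -3.11 and -3.49 in siTIMP1 cells, against -3.89 and -3.90 in siControl cells. The siTIMP1 values were both higher, with a log2 fold change of 0.59 (SE 0.265, adjusted p = 0.315).

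**Figure D2:**
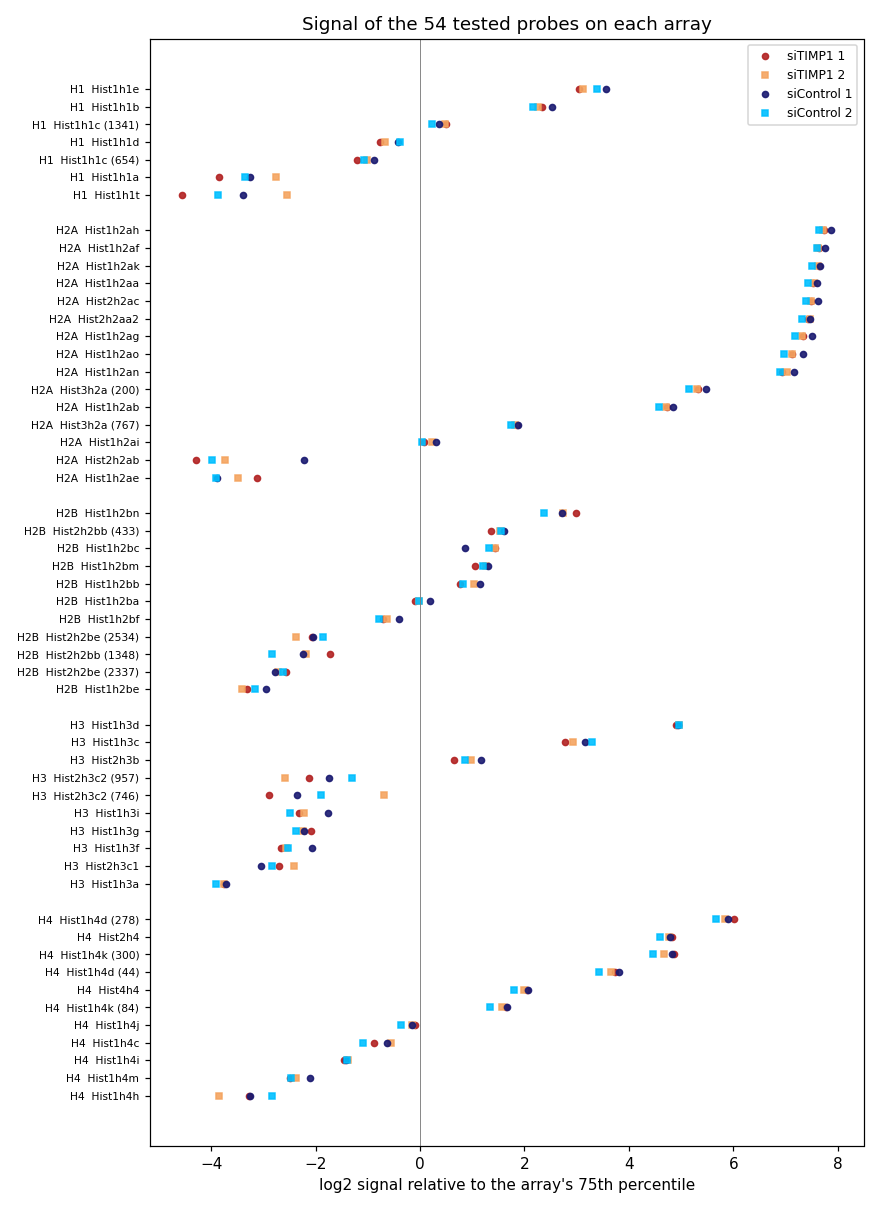
Log2 signal, relative to the array's 75th percentile, of the 54 tested histone probes (rows, by class, brightest first) on the siTIMP1 arrays (red and orange) and the siControl arrays (dark and light blue). Arrays are to be compared within a row only; the H2A rows near 7 show the siTIMP1 arrays between the siControl arrays.

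H1 held the histone probe with the lowest p. Hist1h1e encodes a somatic linker histone, and its probe at chr13:23713707-23713766 (mm9, minus strand) ends on the stop codon. Hist1h3c encodes an H3, and its probe at chr13:23836950-23837009 (minus strand) crosses the stop codon, which is in capitals in both. They are printed because they are the members nearest to the threshold.
Hist1h1e: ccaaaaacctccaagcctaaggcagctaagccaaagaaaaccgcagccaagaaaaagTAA
Hist1h3c: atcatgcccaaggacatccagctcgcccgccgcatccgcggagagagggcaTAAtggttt

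Hist1h1e read 3.04 and 3.12 on the siTIMP1 arrays, against 3.56 and 3.39 on the siControl arrays. Both siTIMP1 arrays were lower than both siControl arrays, which was true of 2 of the 7 tested H1 probes and of 23.2% of all tested probes. The log2 fold change was -0.39 (SE 0.0845, 95% interval -0.61 to -0.17, unadjusted p = 0.00557, limma adjusted p = 0.135). The other such H1 probe was that of Hist1h1d, a further somatic linker histone, at -0.76 and -0.67 in siTIMP1 cells, against -0.43 and -0.39 in siControl cells. Its log2 fold change was -0.31 (SE 0.104, adjusted p = 0.231). Neither difference passed the adjusted threshold.

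The remaining H1 members did not follow them. Hist1h1b, another somatic H1, read 2.34 and 2.27 in siTIMP1 cells, against 2.53 and 2.16 in siControl cells, with a log2 fold change of -0.04 (95% interval -0.39 to 0.31). The probes of Hist1h1c differed in sign. The one starting at base 654 of its target gave a log2 fold change of -0.14 and the one at base 1341 gave 0.21, with adjusted p-values of 0.602 and 0.329. Hist1h1a had a log2 fold change of 0 to 2 decimals, but its interval ran from -1.03 to 1.03. Hist1h1t, known as a testis form, was well above background on 3 of the 4 arrays and spanned -1.68 to 1.85.

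H2B had no probe at an unadjusted p under 0.05, where 18.4% of all tested probes had one. Hist1h2bc read 1.44 and 1.43 in siTIMP1 cells, against 0.86 and 1.31 in siControl cells. Hist1h2bn read 2.98 and 2.74 in siTIMP1 cells, against 2.71 and 2.37 in siControl cells. In both genes, which encode core H2B, the siTIMP1 arrays were higher, with log2 fold changes of 0.35 (SE 0.162, adjusted p = 0.326) and 0.32 (SE 0.147, adjusted p = 0.325). For Hist1h2bc the siControl arrays were 0.45 apart, more than the fold change itself. On the negative side, Hist1h2be gave -0.31 (adjusted p = 0.483), Hist1h2ba, known as a testis form of H2B, -0.14 (adjusted p = 0.531), and Hist1h2bb -0.09 (adjusted p = 0.782).

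In H2B too, probes of the same gene parted. Hist2h2bb had a log2 fold change of -0.14 (SE 0.0953) at base 433 of its target and of 0.57 (SE 0.279) at base 1348. Hist2h2be gave 0.06 at base 2337 and -0.26 at base 2534. None of these passed the test. The Hist2h2bb probe at base 1348 and both Hist2h2be probes were dim, with levels from -2.83 to -1.72. By its base in the array's target, that Hist2h2bb probe also starts past the 493-base span of its gene's current RefSeq model. The target and the model need not begin at the same base. On mm9 the Hist2h2bb probes lie at chr3:96074056-96074115 and chr3:96082754-96082813. Counting every class, 7 genes had 2 tested probes, and in 4 of them the probes had opposite signs.

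In H3, 2 of the 10 probes had an unadjusted p under 0.05, near the share of 18.4% over all tested probes. Hist1h3c read 2.78 and 2.92 in siTIMP1 cells, against 3.17 and 3.29 in siControl cells. All siTIMP1 values were lower, and the log2 fold change was -0.38 (SE 0.0864, 95% interval -0.60 to -0.16, unadjusted p = 0.00687, adjusted p = 0.145). The Hist1h3d probe, which the array file lists for 4 H3 genes, read 4.90 and 4.96 in siTIMP1 cells, against 4.93 and 4.96 in siControl cells. It had the narrowest interval of any histone member, -0.16 to 0.13 around a log2 fold change of -0.02. One of the 4 listed genes is H3c3, the current symbol of Hist1h3c, so that the probes of Hist1h3c and Hist1h3d may share a target while only the first had separate groups.

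Both probes of Hist2h3c2 were dim. This gene, which encodes an H3 of the replication-coupled kind, read -2.13 and -2.59 in siTIMP1 cells, against -1.75 and -1.30 in siControl cells with the probe at base 957. Here the siTIMP1 values were lower, and the log2 fold change was -0.84 (SE 0.243, unadjusted p = 0.018, adjusted p = 0.191). With the probe at base 746 it read -2.90 and -0.68 in siTIMP1 cells, against -2.35 and -1.89 in siControl cells. That probe's siTIMP1 arrays enclosed the siControl arrays, and its log2 fold change of 0.33 (SE 0.723) turned to -0.77 without siTIMP1 array 2. Hist2h3c1, also dim, had 0.39 (adjusted p = 0.375), and Hist2h3b, with levels from 0.66 to 1.17, had -0.20 (adjusted p = 0.520). In the Hist1 cluster, the dim genes Hist1h3g and Hist1h3f had 0.14 and -0.32, with adjusted p-values of 0.654 and 0.465.

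Probes for H4, the most conserved of the core histones, had 8 positive and 3 negative log2 fold changes. All tested probes had 13764 positive and 12251 negative ones. The brighter Hist1h4d probe read 6.02 and 5.83 in siTIMP1 cells, against 5.89 and 5.66 in siControl cells. Its groups overlapped, with a log2 fold change of 0.15 (SE 0.104, adjusted p = 0.477). The values for Hist1h4k were 0.13 and 0.11 over its probes, for Hist1h4c and Hist1h4j 0.14 each, for Hist2h4 0.10 and for Hist4h4 0.08. The second probe of Hist1h4d gave 0.07. The negative values were those of Hist1h4i at -0.02, Hist1h4m at -0.14 and Hist1h4h at -0.51, the last with an interval from -1.29 to 0.28. The Hist1h4h probe was not well above background on siTIMP1 array 2, where it read -3.84. The median level of the 11 H4 probes was 1.64 and 1.58 on the siTIMP1 arrays, against 1.66 and 1.34 on the siControl arrays. SiControl array 2 thus lay below the other 3. The median fold change of H4 was 0.25 without siControl array 1 and -0.05 without siControl array 2.

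Over the 54 histone probes the median absolute log2 difference was 0.10 between siTIMP1 arrays, 0.23 between siControl arrays and 0.12 between groups, against 0.12, 0.15 and 0.17 over all tested probes. In the histone probes the value between siControl arrays was thus above that between groups, and the value between siTIMP1 arrays was below it. The values are not like measures. A difference between means of 2 arrays varies less than a difference between single arrays. In siControl cells, array 1 was above array 2 in 43 of the 54 histone probes, where it was above in 47.5% of all tested probes. The median of array 1 minus array 2 was 0.21 for siControl in the histone probes, against -0.01 over all tested probes. For siTIMP1 the same median was -0.01, and array 1 was above array 2 in 26 of 54 histone probes, against 50.7% of all tested probes. Counted by class, siControl array 1 was above array 2 in 6 of 7 H1 probes, 15 of 15 for H2A, 8 of 11 for H2B, 5 of 10 for H3 and 9 of 11 for H4. Among the listed genes it was above in 8 of 10 fibroblast markers, 9 of 11 histone variants, 9 of 19 genes of histone message making, 11 of 23 chaperones, 11 of 20 S phase genes, 2 of 3 immune markers and 0 of 2 epithelial markers. What set these arrays apart was not tested.

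**Figure D3:**
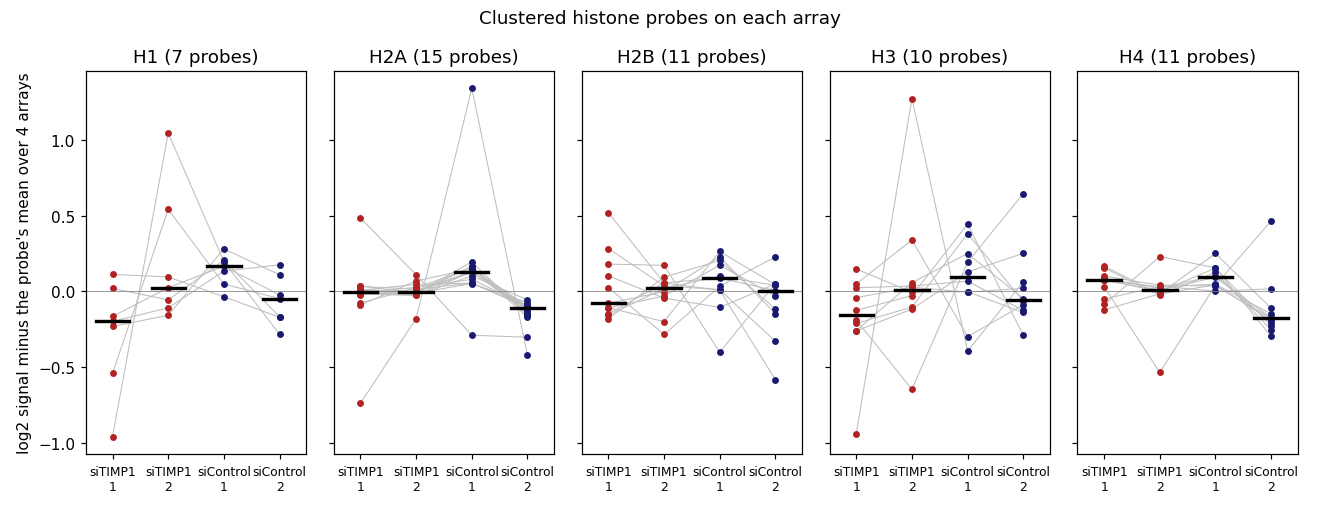
Each tested histone probe on each array, as log2 signal minus the probe's mean over the 4 arrays, with siTIMP1 in red, siControl in blue, grey lines joining a probe and black bars at the median. In H2A and H4 the siControl medians lie apart, array 1 above and array 2 below, and the siTIMP1 medians lie between or near them.

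With each siControl array set aside in turn, the median of all members moved to either side of 0. It was 0.11 without siControl array 1 and -0.13 without siControl array 2. At an unadjusted p under 0.05 there were then 16 and 13 members in place of 4, beside 22% and 19.1% of all tested probes, and still 0 at the adjusted threshold. The siTIMP1 and siControl arrays did not overlap for 17 of the 54 members, 7 with siTIMP1 above and 10 below, against 53% of all tested probes (29.8% above and 23.2% below). Both siTIMP1 arrays lay inside the siControl range for 20 of them, against 12.2%. Among probes with a mean level at or above 0 this was 54.8% of histone probes and 12.5% of all.

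The position of a probe in its message also bears on what it reads, since a stem-loop message ends soon after the stop codon. The current RefSeq models of the 56 genes had a median span of 497.5 bases, and 50 spanned at most 1000. The array's target and the model need not begin at the same base. Going by the base in the target, 12 probes started past the span of their own gene's model, and 6 of them were tested. These were the far probes of Hist1h1c, Hist3h2a and Hist2h2bb, that of Hist2h3c1 and both of Hist2h3c2, and their log2 fold changes ran from -0.84 to 0.57. Probes that carry the stem-loop itself were searched along the probe strand with the 16-base consensus of the histone stem-loop, and 5 of the 7 found among all 56605 probes were histone members. The element is in capitals within the part of each probe around it.
Hist1h2bf: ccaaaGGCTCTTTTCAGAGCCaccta
Hist2h2bb: caaaaGGCTCTTTTCAGAGCCacttt
Hist1h3a: ccaaaGGCTCTTTTCAGAGCCaca
Hist1h3i: caaaaGGCTCTTTTCAGAGCCccctc
Hist1h4m: ctaaaGGCCCTTTTCAGGGCCatcca

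None of the 5 passed the test. Hist1h2bf was at -0.08 on the log2 scale (adjusted p = 0.801) and Hist2h2bb -0.14 at this probe (adjusted p = 0.471). The H3 members Hist1h3a and Hist1h3i gave 0.06 and -0.15, and Hist1h4m gave -0.14 (adjusted p = 0.720). Hist1h3i read -2.33 and -2.23 in siTIMP1 cells, against -1.76 and -2.49 in siControl cells, so the siControl arrays enclosed the siTIMP1 arrays.

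Promoter elements were counted by class, since histone genes of a class are known to share some of them. RefSeq promoters of the build GRCm38.p6, from 250 bases before the start of transcription to 50 after it, were found for 49 of the 56 genes. Only the 250 bases before the start were searched for the elements. The octamer ATTTGCAT, which POU factors such as the product of Pou2f1 can bind, was found on either strand in 7 of 17 H2A and 6 of 11 H2B promoters, in 0 of 21 promoters of the other classes and in 1.6% of all 32851 promoters. AAACACA, known as the H1 box, was found in 5 of 6 H1, 2 of 17 H2A and 2 of 11 H2B promoters, in 0 of the H3 and H4 promoters and in 6.25% of all. CCAAT was found in every H1, H2A and H2B promoter matched (6, 17 and 11), in 5 of 7 for H3, in 2 of 8 for H4 and in 33.8% of all. TATAAA was found in 4 of 6 for H1, 7 of 17 for H2A, 7 of 11 for H2B, 2 of 7 for H3, 4 of 8 for H4 and 12.4% of all. A match is a string of letters and not a measured binding site. Where an H2A and an H2B gene lie head to head, their searched stretches overlap. The same match may then be counted in both classes. The 250 bases before the start of Hist1h1e, at chr13:23622559-23622808 on GRCm38.p6 (minus strand), are shown for their order of elements, with the H1 box, CCAAT and TATAAA in capitals.
Hist1h1e: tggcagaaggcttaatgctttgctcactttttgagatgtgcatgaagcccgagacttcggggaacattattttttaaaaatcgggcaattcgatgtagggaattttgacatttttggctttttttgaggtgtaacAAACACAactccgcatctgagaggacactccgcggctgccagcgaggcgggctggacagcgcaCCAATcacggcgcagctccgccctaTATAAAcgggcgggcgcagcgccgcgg

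H2A and H2B genes often lie head to head with a shared promoter, and 6 such pairs were found among the members. In 2 pairs both genes had a tested probe. Hist1h2ak, with a log2 fold change of 0.05, and Hist1h2bn, with 0.32, start 163 bases apart. Hist1h2aa, with 0.02, and Hist1h2ba, with -0.14, start 280 bases apart. None of these genes passed the test, and the difference within a pair was not tested. The array file lists the Hist1h2ak probe for 4 genes. The Hist1h2aa probe shares 54 of 58 overlapping bases with that of Hist2h2ac. Neither H2A value can therefore be assigned to the gene of the pair alone. The stretch between the starts of Hist1h2ak and Hist1h2bn, at chr13:21753913-21754075 on GRCm38.p6 (plus strand), has CCAAT 3 times when both strands are read (ATTGG on the strand shown), in capitals.
Hist1h2ak and Hist1h2bn: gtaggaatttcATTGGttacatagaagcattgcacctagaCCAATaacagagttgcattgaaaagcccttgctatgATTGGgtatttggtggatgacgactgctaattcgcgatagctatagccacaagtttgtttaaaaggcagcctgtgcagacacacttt

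Genes that act with the clustered histones were read from lists, each gene by its brightest tested probe. No gene of the lists was called, where 0.788% of all 17647 genes were (0.085% higher and 0.703% lower). The histone variants, which are made outside S phase too, had 11 of 11 genes tested and a median log2 fold change of 0.02. Cenpa, the H3 form of centromeres, had the lowest p of them, with 2.28 and 2.07 in siTIMP1 cells, against 1.88 and 1.68 in siControl cells. Its log2 fold change was 0.40 (SE 0.115, adjusted p = 0.188). H2afv, a form of H2A.Z, was at 0.15, H3f3b, a gene of the replacement H3, at -0.09 and H2afy, a macroH2A, at -0.18.

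All 19 genes that serve the transcription, 3′ end formation or decay of histone messages were tested, and 0 were called in either direction, with a median of 0.03. Pou2f1 read -0.42 and -0.46 in siTIMP1 cells, against 0.15 and 0.01 in siControl cells (log2 fold change -0.52, SE 0.105, adjusted p = 0.120). Eri1, an exonuclease that trims the histone stem-loop, read -0.83 and -0.80 in siTIMP1 cells, against -0.35 and -0.26 in siControl cells (log2 fold change -0.51, adjusted p = 0.124). Srrt, a partner of the cap-binding complex, had 0.45 (adjusted p = 0.135) and Lsm10, part of the U7 particle that directs cleavage, 0.25 (adjusted p = 0.173). In these 4 genes the groups did not overlap, which was true of 53% of all tested probes. Slbp, which binds the stem-loop, was at 0.11 (adjusted p = 0.632).

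Of 23 histone chaperones and their partners, all were tested, 0 were called and the median was -0.04. The lowest p-values were those of Anp32e, which removes H2A.Z from chromatin, at -0.37 (adjusted p = 0.125), Atrx, a partner in H3 deposition, at -0.30, Set, which binds histones and inhibits their acetylation, at -0.20 and Nasp, a carrier of H3 and H4, at -0.18. Another tested probe of Anp32e gave 0.18.

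Of 22 S phase genes 20 were tested, 0 were called and the median was -0.09, with 14 negative. Counted by probe, 12251 of all 26015 tested probes were negative. Rrm2, a subunit of the reductase that makes deoxyribonucleotides, read 3.92 and 3.88 in siTIMP1 cells, against 4.64 and 4.41 in siControl cells (log2 fold change -0.62, SE 0.0904, adjusted p = 0.0726). Mcm2, part of the replicative helicase, read 2.07 and 1.97 in siTIMP1 cells, against 2.43 and 2.48 in siControl cells (log2 fold change -0.43, adjusted p = 0.104). Mcm4 gave -0.26 (adjusted p = 0.230), while Pcna, the sliding clamp of the replication fork, gave 0.14 (adjusted p = 0.285). For the first 3 the siTIMP1 values were the lower ones, and for Pcna the higher. Over all tested probes both siTIMP1 arrays were below in 23.2% and above in 29.8%.

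**Figure D4:**
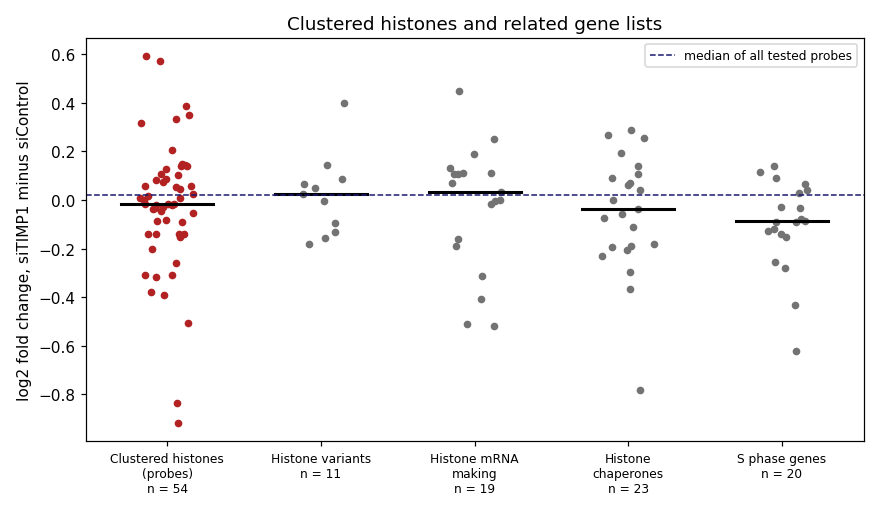
Log2 fold change, siTIMP1 minus siControl, of the 54 tested histone probes (red) and of the tested genes of 4 related lists (grey), with black bars at the medians and a dashed line at the median of all tested probes. The medians run from -0.09 in the S phase genes to 0.03 in the genes of histone message making, and no point passed the adjusted threshold.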

How the data were processed

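Total RNA of 4 NIH3T3 samples, 2 per group by title, was hybridised to 1-colour arrays. Replicate numbers follow accession order and only name samples. The deposited spot intensity values came, according to the submitters' processing notes, from Agilent Feature Extraction (version 11.5.1.1). The processed intensity is background-subtracted and detrended within an array and not scaled between arrays, per the file headers, and probe coordinates are mm9, per the file headers. The authors' deposited table holds log2 values. Set against the scanner values, each column was log2 of the processed signal minus 1 constant (6.90 to 6.96), within 0.005, so its scale, centring and direction are known. Its column medians were -3.99 and -3.91 for siTIMP1 and -3.94 and -3.86 for siControl.

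Here processed signals were divided by the 75th percentile of their array's non-control spots and put on the log2 scale, without spots marked as outliers (136 to 250 per array), and spots of a probe were averaged. No spot was saturated. Of 56605 probes, 26015 were tested with limma 3.58.1 in R 4.3.3 (lmFit, eBayes with a mean-variance trend, Benjamini-Hochberg over all tested probes, threshold 0.05), a fit tested on simulated data. Every adjusted p in the text is from this limma fit. The number of arrays limits the precision.

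Members and gene lists were chosen with earlier results of these data known. Named probes were Timp1, any called member, up to 4 of the largest fold changes per class and direction among members well above background on all arrays, all tested probes of genes with several, and the 4 lowest p-values per list. Hist1h1a, Hist1h1t, Hist1h2aa, Hist1h2ah, Hist1h2bf, Hist1h3d, Hist1h3i, Hist1h4h, Hist2h4, Hist4h4 and Slbp were named after their values were seen. Names are those of the array files, and all 68 member probes matched a current RefSeq symbol. RefSeq promoters and gene spans are of GRCm38.p6 and were not mixed with mm9 positions. The alternatives were another background correction, other scalings, filters and variance models, outlier spots kept, the authors' table, another threshold and each array left out. Figures were drawn with matplotlib 3.10.9.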

Additional observations from a re-analysis of the deposited data

How the results depend on the processing

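The count of histone probes called, 0 higher and 0 lower, was the same under all 13 alternatives and at an adjusted p under 0.1. The 41 named histone probes stayed uncalled in all 533 recomputed values, of which 34 had the other sign. Timp1 kept its direction and its fold change of -5.22 but had an adjusted p of 0.133 without the variance trend. With each array left out it ran from -5.41 to -5.04, with an adjusted p of 0.137 without siTIMP1 replicate 1 and 0.184 without siTIMP1 replicate 2. The probes called over the whole array numbered 179, against 0 without the trend, 0 without either siTIMP1 replicate, 1323 without siControl replicate 1, 392 without siControl replicate 2, 310 with robust eBayes, 458 with no filter and 120 with normexp; the cause was not tested. The H1 median was -0.090 under the stricter filter, which left 6 of 7 probes. With each array left out, the median of all members ran from -0.13 to 0.11, that of H1 from -0.353 to 0.0481, of H2A from -0.13 to 0.12, of H2B from -0.16 to -0.02, of H3 from -0.281 to 0.0381 and of H4 from -0.05 to 0.25. With 1 array left in a group, limma takes the spread from the other group. No paired analysis was possible because the labels give the groups no shared replicate numbers, and a slide block could not be fitted with 1 slide. Signal limits the dim members, whose intervals are wide.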
